A study of Mus musculus with 8 samples.

Results

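The S100 proteins are small calcium-binding proteins, and 9 of their genes, S100a1, S100a3, S100a4, S100a6, S100a10, S100a11, S100a13, S100a14 and S100a16, are described here across 2 sorted fractions of mouse esophageal epithelium. These 9 were taken by name from a table of counts for 55276 gene symbols, and each passed the filter on low counts that left 17344 genes for testing. RNA was sequenced in bulk from C57BL6 mice aged 14 to 15 weeks, 2 females and 2 males. Live cells with integrin beta-1 on their surface and no DAPI uptake were parted by Cyto-ID, a dye of autophagic vesicles, into a dim fraction, Cyto-ID Low, and a bright fraction, Cyto-ID High. Each animal gave 1 library of each fraction, so that there were 8 libraries, 4 per fraction, and both fractions share the integrin beta-1 gate, the strain and the digestion with dispase and trypsin. No genotype or drug is named in the labels, and the protocol calls both fractions basal cells.

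Most S100 proteins form dimers and carry a pair of EF-hand calcium-binding loops. When calcium binds, a surface opens to which partner proteins attach, among them annexins, myosin and receptors. In stratified epithelia they are known as abundant proteins of the keratinocyte cytoplasm and membrane, and several are produced more by cells that leave the basal layer. Many S100 genes lie side by side in 1 chromosomal cluster next to the genes of the cornified envelope. A further group of genes in that cluster encodes S100-fused proteins, such as filaggrin, hornerin and repetin, in which an S100 domain heads a long repetitive chain.

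The 9 genes divided between the fractions. In Cyto-ID High, 2 of the 9 rose (S100a14 and S100a16), 3 fell (S100a6, S100a10 and S100a13) and 4 did not pass the test (S100a1, S100a3, S100a4 and S100a11). The test was edgeR's quasi-likelihood test with sex as a covariate, with Benjamini-Hochberg adjustment over all tested genes and a threshold of 0.05. Of all 17344 tested genes 48.7% passed, 23.4% higher and 25.3% lower, so that a count of 5 of 9 lies near the background. The same 5 genes were those whose CPM did not overlap between the fractions, against 23.6% of all tested genes without overlap and higher in High and 24.9% without overlap and lower (48.6% in all), and these 5 moved in 1 direction in all 4 animals, as 64.2% of tested genes did. The median log2 fold change of the 9 was −0.12, beside −0.090 over all tested genes. That median is the value of S100a3, which ran from −0.57 to 0.13 when 1 library was left out. The replicates are separate animals by their names, and p-values measure the spread between their libraries.

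Libraries held 26285150 to 29301054 counts. Summed CPM (the usual depth-scaled counts, with library factors from trimmed means, TMM) of 10 suprabasal keratinocyte markers ran from 9735 to 25990 in Low and from 135829 to 233441 in High, and that of 9 basal markers from 21006 to 24906 in Low and from 2778 to 4482 in High. Squamous markers were thus present in both fractions, but the name basal cells goes against the marker levels of High, which is called here by its gate only. Itgb1, the gene of the gated surface protein, was itself lower in High by log2 fold change −2.44 (SE 0.21, BH-adjusted edgeR p 2.16e-05). In bulk RNA, fewer cells of a type and less RNA per cell cannot be told apart. The High library of Male2 stood apart with few transcripts of several other cell types: 12 leukocyte markers summed to 10.6 CPM there and to 36.4 to 100.3 CPM in the other High libraries, while the Low libraries had 60.3 to 98.5 CPM. Among cornified envelope genes, Sprr2d was low there too (1.18 CPM against 13.1 to 39.0 in the other High libraries), whereas Sprr3 was highest there (6222 against 3008 to 5289). Further sums were 13.3 to 26.9 CPM in Low and 1.49 to 33.6 in High for 6 endothelial markers, and 36.2 to 58.1 and 4.94 to 52.2 for 8 muscle markers. For 8 glia and melanocyte markers they were 153 to 186 and 131 to 179, mostly from Mbp (mean 156 in Low and 144 in High). In the High library of Male2 this sum was 160.6 CPM, of which Mbp held 158.5. Both libraries of Female2 carried gastric transcripts (18.3 and 110.4 CPM, under 1 CPM elsewhere). Each call among the 9 genes was the same without either animal, in fits chosen after these levels were seen.

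The members of the family sit in a tight order on chromosome 3, and the positions below are from GENCODE M21 on GRCm38, the build named in the submitters' processing notes. S100a1 (chr3:90511034-90514392, minus strand) and S100a13 (chr3:90514435-90524581, plus strand) stand head to head with 42 bases between them. S100a14 (chr3:90526856-90528837) and S100a16 (chr3:90537254-90543151) follow on the plus strand, then S100a3 (chr3:90560578-90602702), S100a4 (chr3:90603771-90606045) and S100a6 (chr3:90612882-90624181). S100a11 (chr3:93520488-93526287) and S100a10 (chr3:93555080-93564643) lie 2825 kb beyond S100a9, on the far side of the genes of the cornified envelope. Upstream sequence from RefSeq (GRCm38.p6) was matched for 7 of the 9 genes. S100a10 and S100a14 had no entry in that table. The stretches printed are those upstream of a gene that rose (S100a16), one that fell (S100a6) and one that did not pass (S100a11), each up to the base before its first annotated start, and the gap between the head-to-head pair, all on the plus strand, 5′ to 3′.
S100a16, chr3:90537004-90537253: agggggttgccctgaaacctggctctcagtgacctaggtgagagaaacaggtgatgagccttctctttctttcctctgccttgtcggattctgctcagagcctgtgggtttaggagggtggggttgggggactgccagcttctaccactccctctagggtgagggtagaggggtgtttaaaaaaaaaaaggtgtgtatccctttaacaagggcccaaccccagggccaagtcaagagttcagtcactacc
S100a6, chr3:90612644-90612881: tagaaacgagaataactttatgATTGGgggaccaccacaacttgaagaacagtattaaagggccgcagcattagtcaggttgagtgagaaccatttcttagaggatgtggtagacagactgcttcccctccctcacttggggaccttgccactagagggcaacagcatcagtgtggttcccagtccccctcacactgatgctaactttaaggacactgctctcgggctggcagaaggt
S100a11, chr3:93520246-93520487: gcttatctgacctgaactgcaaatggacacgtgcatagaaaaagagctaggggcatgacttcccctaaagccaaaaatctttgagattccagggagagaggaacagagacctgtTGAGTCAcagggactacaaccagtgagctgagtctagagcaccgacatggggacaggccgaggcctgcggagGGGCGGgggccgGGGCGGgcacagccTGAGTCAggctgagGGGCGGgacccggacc
S100a1 to S100a13, chr3:90514393-90514434: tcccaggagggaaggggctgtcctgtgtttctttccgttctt

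Capitals mark matches to any of 6 short motifs searched on both strands: the TATA box TATAAA, the CCAAT box CCAAT, the GC box GGGCGG, the AP-1 site TGANTCA, the Grainyhead-like site AACCNGTT and the TEAD site GGAATG. The S100a11 stretch held 3 GC boxes and 2 AP-1 sites, and the S100a6 stretch 1 CCAAT box. None of the 6 was found in the S100a16 stretch or in the gap between S100a1 and S100a13. S100a16 has 2 starts in the table, and the window of its other start, not printed, held a GC box and an AP-1 site. Among 32851 RefSeq windows of 250 bases upstream, 32.7% held the GC box, 6.75% the AP-1 site and 33.8% the CCAAT box. A match describes letters only, and no binding was measured here.

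S100a14, an epithelial S100 protein, was the most abundant member in Cyto-ID High. It was at 555, 526, 485 and 600.0 CPM in the Low libraries of Female1, Female2, Male1 and Male2, and at 1768, 1849.8, 1713 and 1930.2 CPM in their High libraries. The fractions did not overlap, and within each the libraries lay close together, with a coefficient of variation of 5.24% in High and 8.96% in Low. The mean rose from 541 ± 48.5 to 1815 ± 95.2 CPM (SD, n = 4 each), with log2 fold change 1.75 (SE 0.16, BH-adjusted edgeR p 2.58e-05). S100a16, an EF-hand protein that can bind S100A14, had 289, 247, 239 and 362 CPM in Low and 879.5, 1083, 889.9 and 1293 CPM in High, in the same order of animals. Every High library lay above every Low library, and the highest in each fraction was Male2. The mean rose from 284 ± 56.2 to 1036 ± 195 CPM, with log2 fold change 1.87 (SE 0.20, BH-adjusted edgeR p 6.74e-05). The ratio of S100a16 to S100a14 counts, which does not depend on library scaling, was 0.521 ± 0.058 in Low and 0.568 ± 0.077 in High, so that the ranges overlapped (0.469 to 0.603 and 0.497 to 0.670). On the chromosome these neighbours are 8.42 kb apart.

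S100a6, or calcyclin, a partner of annexins and of calcyclin-binding protein that is known from growing cells, fell the most. Its Low libraries had 520.3, 351, 472 and 434 CPM and its High libraries 209, 108, 148 and 83.5 CPM, in the order Female1, Female2, Male1, Male2. The fractions did not overlap. The mean went from 445 ± 71.5 to 137 ± 55.0 CPM (SD, n = 4 each), with log2 fold change −1.71 (SE 0.28, BH-adjusted edgeR p 0.000694). Within High the libraries ranked from Female1 over Male1 and Female2 to Male2, which is also the rank of the summed leukocyte markers (100.3, 74.6, 36.4 and 10.6 CPM) and of 9 fibroblast markers (481, 347, 163 and 57.8 CPM). The TMM factors had the same rank (0.944, 0.896, 0.792 and 0.679), and so had the raw counts of S100a6 (5426, 3887, 2484 and 1623). Gene by gene this rank was that of 8 of 12 leukocyte, 6 of 9 fibroblast, 2 of 9 basal and 0 of 10 suprabasal markers. The fibroblast sum was 388 to 562 CPM in Low and 57.8 to 481 CPM in High. Of its 9 markers 2 fell, Dcn by 2.87 and Fbln1 by 1.93 on the log2 scale (SE 0.33 and 0.13), lower in all 4 animals as S100a6 was. The other 7 did not pass. All 9 basal markers fell, and of 11 tested leukocyte markers 1 rose and 1 fell. In Low the highest S100a6 library, Female1, also had the highest leukocyte sum but not the highest fibroblast sum. Without the High library of Male2 the S100a6 fold change was −1.52 (SE 0.26, BH-adjusted edgeR p 0.00114), and by total counts only it was −2.22. The part of other cell types in this fall was not tested.

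S100a10, also called p11, binds annexin A2 in a membrane-associated complex and is unusual in the family because it does not need calcium. Its Low libraries had 287, 202, 307 and 305 CPM and its High libraries 182, 148, 143 and 133 CPM. All Low libraries lay above all High libraries, with Female2 the lowest of Low. The mean fell from 275 ± 49.4 to 151.5 ± 21.3 CPM, with log2 fold change −0.86 (SE 0.19, BH-adjusted edgeR p 0.00364). Anxa2, which encodes its partner, had 1063 ± 158 CPM in Low against 1077 ± 210 in High, and did not pass (log2 fold change 0.020, SE 0.18, BH-adjusted edgeR p 0.945). Scaled by total counts only, it was lower in High by 0.56 on the log2 scale and passed (edgeR adjusted p 0.00639). The ratio of S100a10 to Anxa2 counts was 0.242 to 0.279 in the Low libraries and 0.0958 to 0.186 in the High libraries, without overlap.

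S100a13, a carrier in the release of FGF1 and interleukin-1 alpha from cells by a route without signal peptides, was a low-level gene. It had 11.2, 9.32, 10.6 and 11.6 CPM in Low, and 5.71, 3.66, 4.08 and 4.68 CPM in High. The lowest Low library lay above the highest High library. The mean fell from 10.7 ± 1.0 to 4.53 ± 0.89 CPM, with log2 fold change −1.24 (SE 0.19, BH-adjusted edgeR p 0.000476). S100a1, its head-to-head neighbour and best known as a regulator of calcium handling in muscle, had 7.72, 7.62, 7.95 and 9.39 CPM in Low and 8.80, 8.49, 7.32 and 9.93 CPM in High. These ranges overlapped and the log2 fold change was 0.081 (SE 0.16, BH-adjusted edgeR p 0.722). The ratio of S100a13 to S100a1 counts was 1.22 to 1.45 in Low and 0.431 to 0.649 in High, so that the divergent pair changed its balance in every animal whatever the scaling.

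S100a11, or calgizzarin, an annexin A1 partner of keratinocytes, was abundant and did not pass. It was at 119, 129, 142 and 188 CPM in Low and at 149.6, 174, 132 and 243 CPM in High, where Male1 alone was lower in High. The log2 fold change was 0.28 (SE 0.20, BH-adjusted edgeR p 0.292). The sign for S100a1 and S100a11 depended on the scaling. By total counts only, which shifted the median of all tested genes by −0.55, S100a1 was lower by 0.49 on the log2 scale with an edgeR adjusted p of 0.0199 and S100a11 lower by 0.31 (edgeR adjusted p 0.104), while S100a14 and S100a16 were still higher by 1.18 and 1.29. S100a6, S100a10 and S100a13 were lower by 2.22, 1.40 and 1.79 under that scaling.

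**Figure D1:**
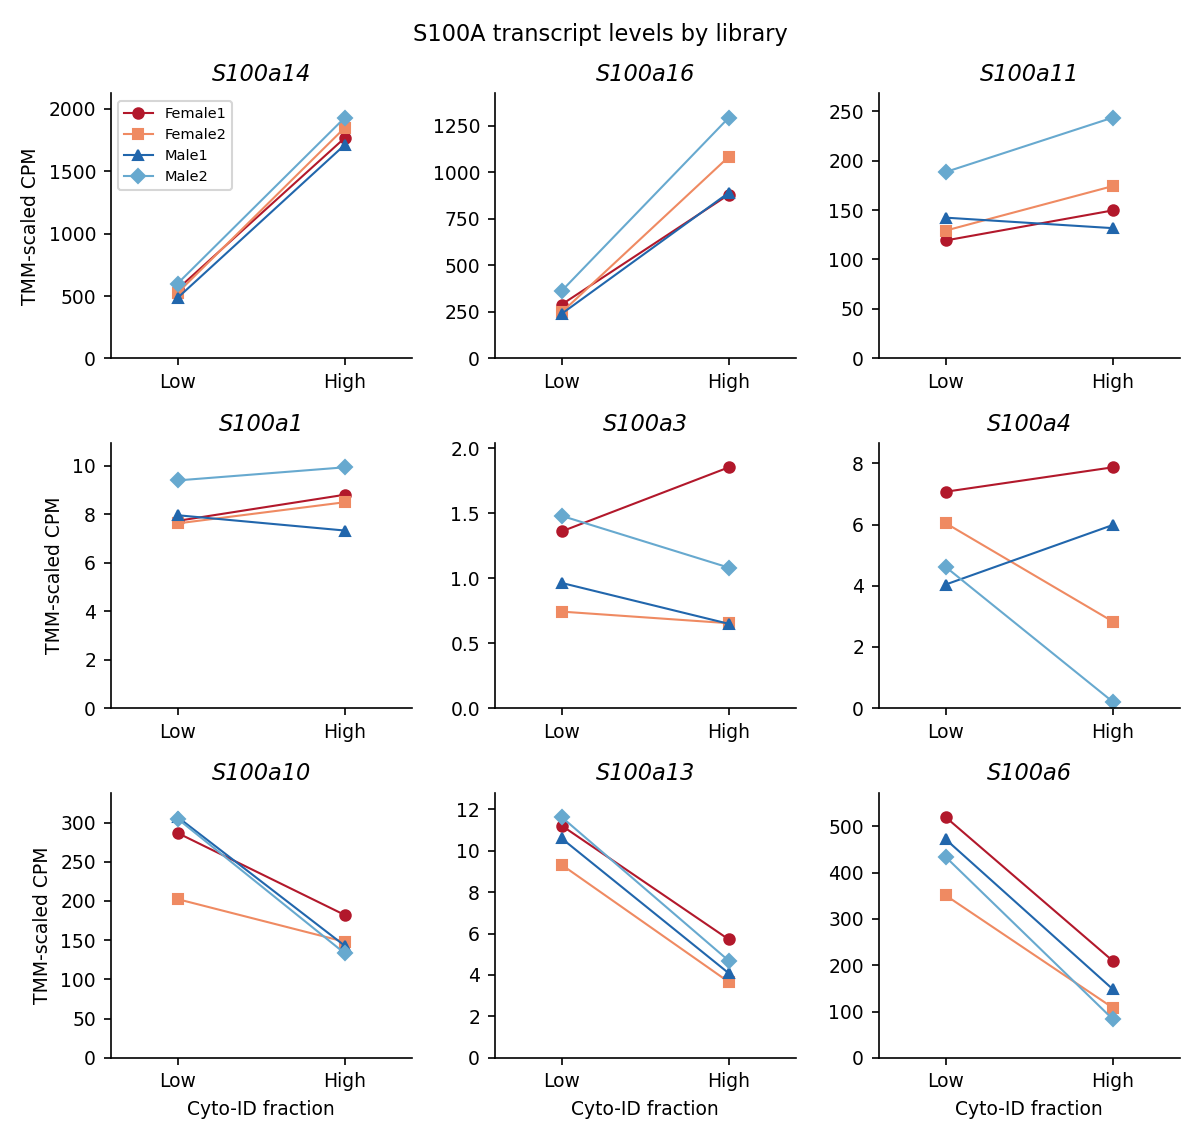
TMM-scaled CPM (y axis, from 0, a separate scale per gene) of the 9 S100A genes in the Cyto-ID Low and High library of each animal, joined by a line. S100a14 and S100a16 rise in all 4 animals, S100a10, S100a13 and S100a6 fall in all 4, and the lines of S100a4 run from 4.62 down to 0.206 in Male2 and from 4.04 up to 5.99 in Male1.

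S100a4, which binds non-muscle myosin and is known from fibroblasts and leukocytes as well as motile cells, varied more between libraries of 1 fraction than between the fractions. It had 7.07, 6.05, 4.04 and 4.62 CPM in Low, and 7.87, 2.83, 5.99 and 0.206 CPM in High. The High library of Male2 rested on 4 counts, where the other 7 libraries had 65 to 229. Its log2 fold change was −0.37 (SE 0.64, BH-adjusted edgeR p 0.680), and 0.018 (SE 0.33, BH-adjusted edgeR p 0.973) without that library. The coefficient of variation was 80.3% in High and 25.3% in Low. In High the libraries ranked as the summed leukocyte, fibroblast and endothelial markers and the TMM factors did. Sprr2d had the same rank, while Sprr3 and the glia and melanocyte sum did not. Of 12 leukocyte markers 1 (Cd3e) was at 0 in the High libraries of Female2 and Male2, and no fibroblast marker was at 0 anywhere. Exons of the predicted gene Gm42674 cover 51.7% of the exon bases of S100a4 on the same strand, and that gene held no count in 6 libraries and 1 in each of the other 2, so reads of the 2 genes may have been assigned in a way not given in the sources used here.

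S100a3, known as a protein of the hair cuticle, was the least abundant member with 15 to 49 counts per library. It had 1.36, 0.742, 0.963 and 1.48 CPM in Low and 1.85, 0.653, 0.648 and 1.08 CPM in High. The fractions overlapped, and the log2 fold change of −0.12 (SE 0.43, BH-adjusted edgeR p 0.858) changed its sign when the Low library of Male2 or the High library of Female2 or Male1 was left out.

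**Figure D2:**
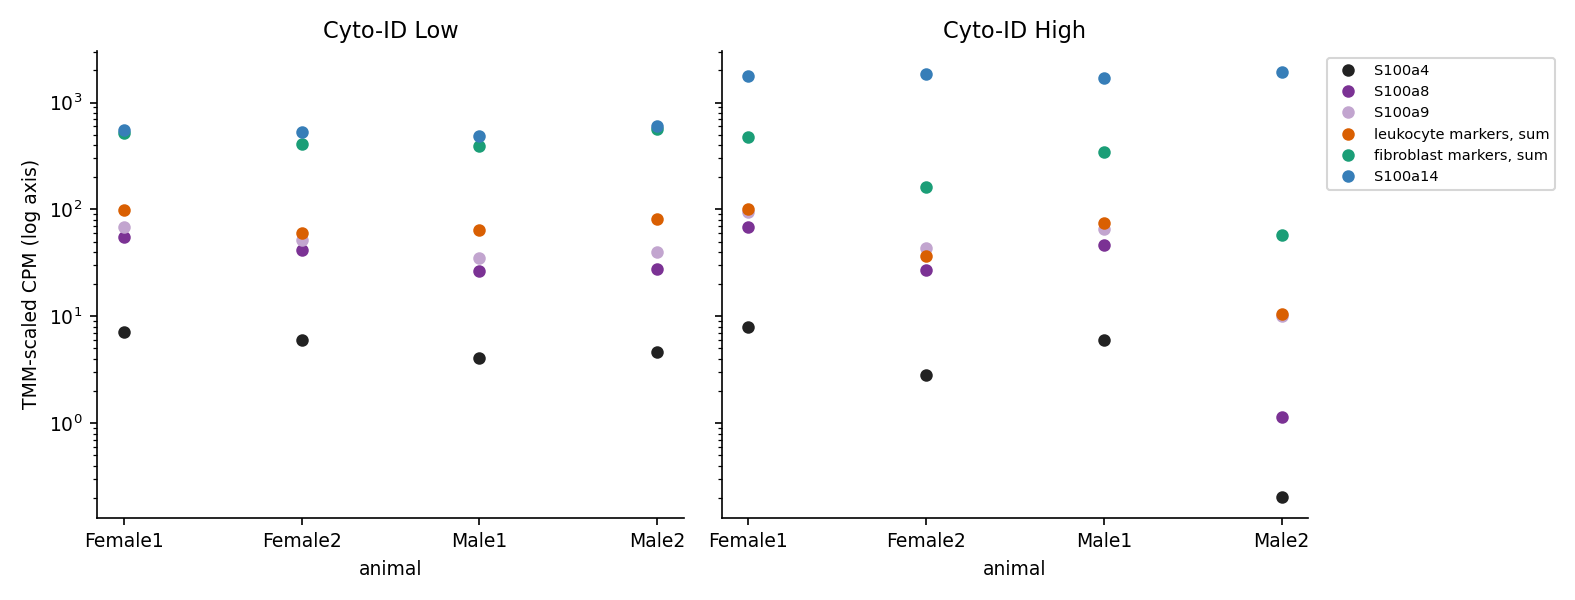
TMM-scaled CPM on a log axis (y) for each animal (x) in Cyto-ID Low (left) and High (right). Each point is 1 library, for S100a4, S100a8, S100a9 and S100a14 and for the sums of 12 leukocyte and 9 fibroblast markers. In High, S100a4 drops to 0.206 in Male2 where the leukocyte sum is 10.6, while S100a14 stays at 1930.2.

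The make-up of the S100A counts differed between the fractions in the same way in all 4 animals. The pairs and the ratio below were formed from genes that had passed, so their separation largely restates those calls. The 9 genes together took 0.208% ± 0.016 of all counts in Low and 0.273% ± 0.022 in High (SD, n = 4 each), with no overlap (0.193% to 0.222% and 0.251% to 0.303%). Their TMM-scaled sum rose more, from 1715 ± 187 to 3333 ± 280 CPM. S100a14 and S100a16 made up 46.95%, 52.2%, 43.4% and 50.2% of the member counts in the Low libraries of Female1, Female2, Male1 and Male2. In their High libraries they made up 82.4%, 86.8%, 85.5% and 87.1%. S100a6 and S100a10 together went from 41.9% ± 4.6 to 8.80% ± 2.72. The count ratio of S100a14 to S100a6 was 1.07, 1.496, 1.03 and 1.38 in Low and 8.44, 17.1, 11.6 and 23.1 in High, so the lowest High library lay above every Low library.

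**Figure D3:**
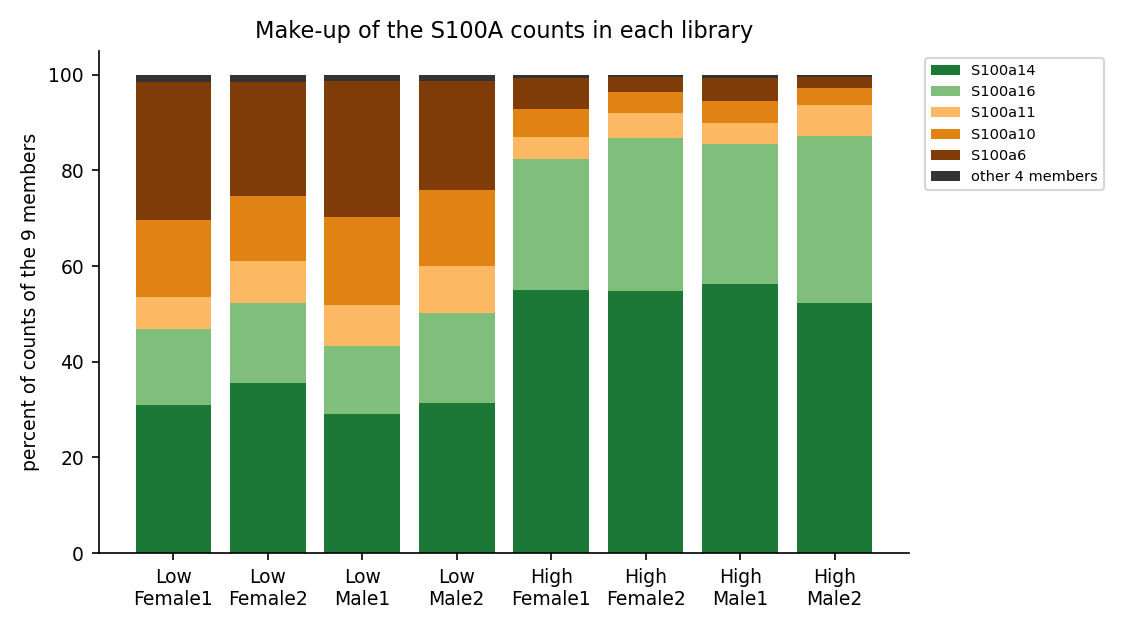
Stacked bars of the percent of the counts of the 9 S100A genes (y axis, 0 to 100) taken by each of 5 genes and by the other 4 members in each library (x axis). S100a14 and S100a16 fill 43.4% to 52.2% of the Low bars and 82.4% to 87.1% of the High bars.

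Levels between genes were compared per length, as CPM per kilobase of the union of annotated exons (RPKM). In Low, S100a6 led with 325 ± 52 RPKM, followed by S100a14 (314 ± 28), S100a11 (283 ± 60), S100a10 (227 ± 41) and S100a16 (176 ± 35), and the ranges of neighbours in this order overlapped. After a gap came S100a13 (14.9 ± 1.4), S100a1 (11.8 ± 1.2) and S100a4 (9.32 ± 2.36), again with overlapping neighbours, and S100a3 (0.201 ± 0.061) was last. In High the order was S100a14 (1051 ± 55), S100a16 (641 ± 121), S100a11 (342 ± 96), S100a10 (125 ± 18) and S100a6 (100.4 ± 40.2). Only S100a10 and S100a6 overlapped among these 5. S100a1 (12.4 ± 1.5), S100a4 (7.23 ± 5.81), S100a13 (6.34 ± 1.25) and S100a3 (0.187 ± 0.100) followed. S100a6 thus went from the top place to the fifth, and S100a16 from the fifth to the second. With the length of the longest transcript in place of the union, all 9 places were kept in High and 6 of 9 in Low, where S100a10 took the second place.

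The other S100 genes of a fixed list of 8 were measured for comparison, and 4 of them were tested. S100a7a, a psoriasin-like antimicrobial protein of keratinocytes, rose from 8.27 ± 2.17 to 55.9 ± 9.4 CPM, with log2 fold change 2.75 (SE 0.20, BH-adjusted edgeR p 1.42e-05). The calprotectin genes S100a8 and S100a9, products of neutrophils and of stressed keratinocytes, were at 37.7 ± 13.3 and 48.9 ± 15.0 CPM in Low. In High they were at 69.0, 26.9, 46.4 and 1.13 CPM and at 94.1, 43.1, 66.1 and 10.03 CPM, the lowest value being that of Male2 for both. Neither passed (edgeR adjusted p 0.930 and 0.881). The 8 neutrophil markers summed to 4.04 to 8.12 CPM in Low and to 0.154 to 10.5 CPM in High, again lowest in Male2. There 7 of the 8 were at 0, against 1 to 3 in each other library, and only 2 of the 8 passed the filter on low counts. S100b, a glial protein, had 0.647 ± 0.110 CPM in Low against 0.629 ± 0.500 in High and did not pass (edgeR adjusted p 0.978). S100a5, S100a7l2, S100g and S100z did not pass the filter on low counts. S100a2, looked at after the table was seen, had 2 to 18 counts and did not pass (log2 fold change 0.82, SE 0.57, BH-adjusted edgeR p 0.268).

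Of 7 S100-fused genes, 6 were tested, and 3 rose and 1 fell, beside 23.4% and 25.3% of all tested genes. Their median log2 fold change was 0.62, but 0.14 by total counts only, 0.081 without the High library of Male1 and 1.86 for the genes with at least 10 counts per library. Hornerin (Hrnr) rose from 15.6 ± 9.9 to 231 ± 48 CPM (log2 fold change 3.91, SE 0.52) and repetin (Rptn) from 81.5 ± 30.0 to 609 ± 98 CPM (2.92, SE 0.27), with edgeR adjusted p of 0.000203 and 3.01e-05. Filaggrin (Flg) rose by 0.82 in log2 terms (SE 0.26, BH-adjusted edgeR p 0.0231), but its ranges overlapped and it did not pass in 6 of 17 alternatives. These were total counts only (0.31, edgeR adjusted p 0.431) and the omission of the Low library of Female2, Male1 or Male2 or the High library of Female1 or Male1 (edgeR adjusted p 0.0668, 0.0928, 0.0578, 0.0704 and 0.0691). Trichohyalin (Tchh) fell from 11.3 ± 1.3 to 7.61 ± 0.56 CPM, with log2 fold change −0.57 (SE 0.14, BH-adjusted edgeR p 0.00906). Crnn and Flg2 were near 1 CPM, with log2 fold changes of −0.28 and 0.42, and did not pass (edgeR adjusted p 0.680 and 0.628).

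**Figure D4:**
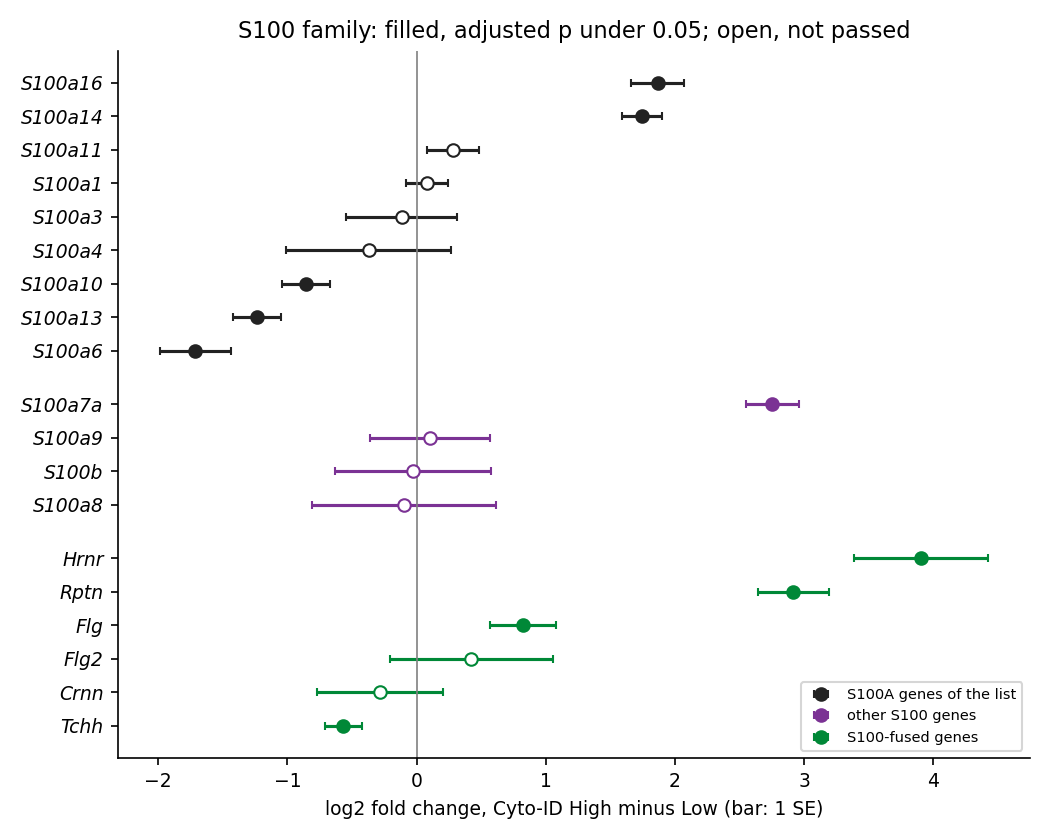
Log2 fold change of Cyto-ID High minus Low (x axis) with 1 SE as the bar for the 9 S100A genes, 4 other S100 genes and 6 S100-fused genes that were tested (y axis). Filled points passed an adjusted p of 0.05, and the S100A genes run from −1.71 for S100a6 to 1.87 for S100a16.

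Along the chromosome, rising and falling S100 genes stood next to each other. In order from the first start, the log2 fold changes were 0.081 for S100a1, −1.24 for S100a13, 1.75 for S100a14, 1.87 for S100a16, −0.12 for S100a3, 0.82 for S100a2, which lies within the span of S100a3, −0.37 for S100a4, −1.71 for S100a6, 2.75 for S100a7a, −0.096 for S100a8 and 0.11 for S100a9. S100a5, between S100a4 and S100a6, was not tested. S100a11 and S100a10, separated by 28.8 kb, were at 0.28 and −0.86. The span from S100a1 to S100a10 holds 121 annotated genes over 3054 kb, of which 76 were tested. Among these 39.5% rose and 5.26% fell, beside 23.4% and 25.3% of all tested genes, and the median was 0.24. By total counts only, 8 genes of the span fell and its median was −0.26. The median was also below 0 without the High library of Female1 (−0.019) or Male1 (−0.076). The 4 that fell were S100a6, S100a10, S100a13 and Tchh. None of the 57 genes outside the S100 and S100-fused families fell in this fit, and 24 rose (edgeR's quasi-likelihood test). In 9 of 17 alternatives 1 to 3 such genes fell, all of them predicted genes or pseudogenes (Gm35013, Gm5850, Gm37087, Gm37752 and Rplp0-ps1, named after the results were seen). They were 3 by total counts only, 2 without a filter, 1 with the replicate block, 1 without the Low or High library of Female1, and 2 without the Low library of Male2 or the High library of Female2, Male1 or Male2. The largest increases among them were those of Pglyrp3, a peptidoglycan recognition protein (log2 fold change 4.22, SE 0.53), loricrin (Lor, 4.12, SE 0.64) and Sprr3 (4.11, SE 0.65), the latter both cornified envelope proteins. Many genes of this span belong to multicopy families whose reads may have been split in counting.

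**Figure D5:**
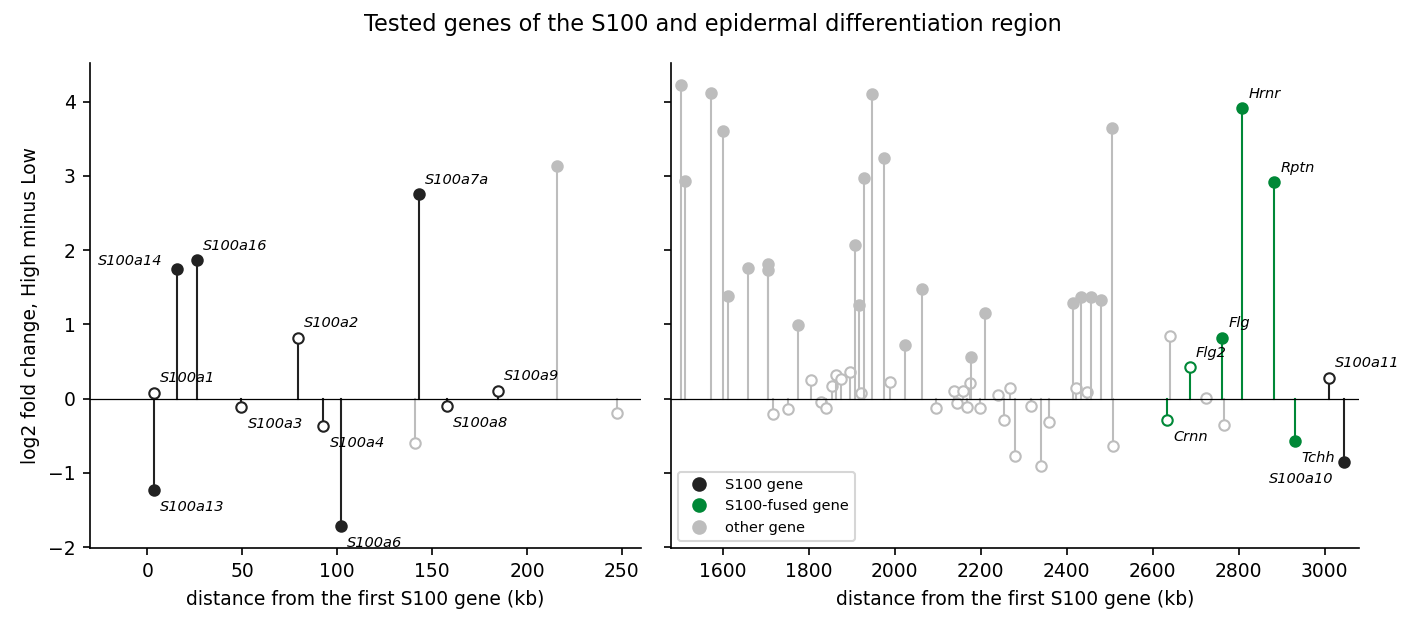
Log2 fold change of Cyto-ID High minus Low (y axis) against the distance of each tested gene's start from the first base of S100a1 in kilobases (x axis, in 2 windows with different scales, with no tested gene between them). Black points are S100 genes, green points S100-fused genes and grey points other genes, filled where the adjusted p was under 0.05. Falling S100 genes stand next to rising ones, as with S100a13 at −1.24 and S100a14 at 1.75.

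Partners of the S100A proteins were taken from a list of 18 genes, of which 17 were tested. In Cyto-ID High 4 rose and 6 fell, or 7 rose with the animal as a replicate block. A count of 10 of 17 stands beside 48.7% of all tested genes called, 23.4% higher and 25.3% lower, and the median log2 fold change of the partners was 0.13. By total counts only 3 rose and 8 fell and the median was −0.35, and without both libraries of Male2 it was 0.50. Ahnak, a large scaffold that the S100A10 and annexin A2 complex binds, rose from 1029 ± 342 to 2940 ± 933 CPM (log2 fold change 1.51, SE 0.30, BH-adjusted edgeR p 0.00248). Anxa1, the partner of S100A11, had 1282 ± 422 CPM in Low against 1948 ± 150 in High (log2 fold change 0.61, SE 0.25), without overlap. It did not pass with an edgeR adjusted p of 0.0761, but passed with the animal as a replicate block (0.0323). By total counts only its log2 fold change was 0.049 (edgeR adjusted p 0.870). Anxa6 and Anxa11, both described as S100A6 partners, fell by 2.18 and 1.68 on the log2 scale (SE 0.15 and 0.20), and Cacybp, the calcyclin-binding protein, had 0.39 (SE 0.17, BH-adjusted edgeR p 0.0828), which was −0.16 by total counts only.

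The cargo genes below rose and the receptor gene fell, while the non-muscle myosin genes moved in opposite directions. Fgf1 and Il1a, whose proteins S100A13 helps to release, rose by log2 fold changes of 1.16 (SE 0.26, BH-adjusted edgeR p 0.00465) and 1.71 (SE 0.23, BH-adjusted edgeR p 0.000236), from 0.818 ± 0.098 to 1.83 ± 0.13 CPM and from 3.17 ± 0.84 to 10.4 ± 1.5 CPM, while S100a13 itself fell. By total counts only the rise of Fgf1 was 0.62 and did not pass (edgeR adjusted p 0.0939). Myh9, the myosin heavy chain that S100A4 binds, fell by 0.63 in log2 terms (SE 0.22, BH-adjusted edgeR p 0.0362). Its fractions overlapped, and it did not pass without the Low library of Female1 or the High library of Female1, Female2 or Male1 (edgeR adjusted p 0.0572, 0.0894, 0.107 and 0.0869). Myh14, the other non-muscle myosin heavy chain of the list, named after its values were seen, rose from 44.2 ± 9.0 to 190.3 ± 37.2 CPM (log2 fold change 2.10, SE 0.20, BH-adjusted edgeR p 3.09e-05). Ager, the receptor for advanced glycation end products to which several S100 proteins bind, fell by 1.79 in log2 terms (SE 0.43, BH-adjusted edgeR p 0.00645), at a level of 0.803 ± 0.056 CPM in Low and 0.226 ± 0.116 in High. Trp53 and Ppp5c, also of the list and named after their values were seen, had log2 fold changes of −1.37 (SE 0.18) and −0.76 (SE 0.14), with edgeR adjusted p of 0.000176 and 0.00134.

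Genes with a High minus Low pattern nearest to that of the highest and the lowest member were sought among 11042 others with a mean of at least 5 CPM, by the Euclidean distance of the 4 differences per animal in log2 CPM. S100a16 had differences of 1.61, 2.13, 1.90 and 1.84 in Female1, Female2, Male1 and Male2, and the nearest genes were Slc30a7 (distance 0.107), Them4 (0.112), Atp6v1d (0.122), Ell2 (0.181) and Usp54 (0.201). S100a6 had −1.31, −1.70, −1.67 and −2.38, and its nearest were Plod2 (distance 0.284), Camk1 (0.331), Spred1 (0.353), Ripk3 (0.355) and Zfp960 (0.360). These distances describe 4 animals only.

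Sex was the remaining factor of the design. No gene differed by sex in its High against Low change past the threshold (0% of 17344, edgeR's quasi-likelihood test of the interaction, fitted without the animal block). An unadjusted p under 0.05 was reached by 19 genes, far below the share of 0.05 that a calibrated test gives by chance, so the test was conservative here. For the 9 genes the male minus female difference of log2 fold changes ran from −0.77 (SE 0.89) for S100a3 to 0.0043 (SE 0.34) for S100a14, and none passed. The SEs of these differences ran from 0.34 to 1.39 with 2 animals per sex, and the 0% does not show that the sexes were alike.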

How the data were processed

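Bulk RNA of 8 libraries, 4 of Cyto-ID Low and 4 of Cyto-ID High cells, was analysed from raw counts per gene symbol as deposited by the authors. The submitters' processing notes name STAR 2.7.3, DESeq2 and GRCm38, with no role. The counting tool, annotation, strandedness and filters are not given in the sources used here. Libraries held 26285150 to 29301054 counts, and molecular identifiers are not stated, so replicate spread includes technical error.

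Genes were kept by filterByExpr (17344 of 55276), scaled by TMM and tested in R 4.3.3 with edgeR 4.0.16 (glmQLFit, glmQLFTest, sex as covariate, all 8 libraries, two-sided, threshold 0.05). SEs were derived from the F statistic. A prior count of 2 enters log2 CPM. Limma 3.58.1 and DESeq2 1.42.0 served as alternatives. The fits were tested on simulated data. Same-named libraries of an animal were taken as pairs from their names. Deviations from the fraction means correlated at 0.43, 0.32, −0.02 and 0.28 in Female1, Female2, Male1 and Male2. Positions and lengths are from GENCODE M21.

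The members, lists and tests were chosen with earlier results of these data known. Genes named were all 9 members, tested genes of both other S100 lists, 10 partners (Myh14, Trpv6, Sgk1, Trp53 and Ppp5c were added after their values were seen), up to 3 genes per direction in the chromosomal span and 5 nearest genes for the highest and lowest member. Marker lists covered basal and suprabasal keratinocytes, leukocytes, neutrophils, fibroblasts, endothelium, muscle, glia and melanocytes, and stomach.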

Additional observations from a re-analysis of the deposited data

Results flagged for a closer look

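Dixon's test of the extreme libraries in each of 56 groups of 4 singled out 3 values, where chance does so in about 1 of 20 groups. S100a7a was low in the Cyto-ID Low library of Male1 at 5.03 CPM, where the other Low libraries had 9.16 to 9.66. The suprabasal sum was also lowest in that library (9735 CPM), and its part was not tested. Summed gastric markers were high in Female2, at 18.3 CPM in Low against 0.211 to 0.463 in the others, and at 110.4 CPM in High against 0.347 to 0.977.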

How the results depend on the processing

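The 5 members that passed did so in the same direction in all 17 other settings and library omissions, and without Female2 or Male2, and S100a1 passed as a sixth, lower, by total counts only. Leaving out 1 library at a time gave 1.68 to 1.82 for S100a14, 1.74 to 2.01 for S100a16, −1.98 to −1.52 for S100a6, −0.997 to −0.77 for S100a10, −1.39 to −1.14 for S100a13, 0.0097 to 0.19 for S100a1, 0.11 to 0.46 for S100a11, −1.24 to 0.018 for S100a4 and −0.57 to 0.13 for S100a3. S100a3 was 0.13, 0.065 and 0.098 without the Low library of Male2, the High library of Female2 and the High library of Male1, and S100a4 was 0.018 without the High library of Male2. These 2 genes were 0.054 and 0.042 without both libraries of Male2, and S100a4 gave no value under a minimum of 10 counts per library. With the animal as a replicate block 9336 genes passed in place of 8440, no call of the 9 changed, and 7 partners rose in place of 4 (7 with RLE factors, 8 with DESeq2), the added genes under the block being Anxa1, Trpv6 and Sgk1, the last 2 named after their values were seen.

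Total counts only gave −0.49 for S100a1 (edgeR adjusted p 0.0199), −0.31 for S100a11, 8 falling genes in the chromosomal span in place of 4 (4 to 6 when 1 library was left out), and medians of −0.43 (other S100), −0.35 (partners) and −0.26 (span), with 20.5% of all called genes higher in place of 48%. The other S100 median, 0.039 in the main analysis, was −0.11 without a filter, −0.30 with limma-voom and −0.22 with the replicate block, and ran from −0.59 to 0.39 when 1 library was left out. It was −0.30 without the High library of Female1 and −0.59 without that of Male1, and the span's was −0.019 and −0.076. That of the span ran from −0.076 to 0.50 and that of the partners from 0.077 to 0.38. Under a minimum of 10 counts per library, which tests fewer genes, the fused, partner and span medians were 1.86, 0.37 and 0.78, in place of 0.62, 0.13 and 0.24. Without Female2 or Male2 the partner median was 0.29 or 0.50. The 9 genes' share of counts rose by 0.39 (SD 0.14) on the log2 scale, and their TMM-scaled sum by 0.96. Of the genes named beside the members, total counts only turned S100a9 to −0.36, Flg2 to −0.038, Anxa2 to −0.56 and Cacybp to −0.16. S100b was 0.048 with RLE factors and 0.030 with DESeq2. S100a9 was −0.21 with limma-voom and −0.16 with the replicate block, and Anxa2 −0.021 without a filter and −0.00075 under the minimum of 10 counts. Leaving out 1 library gave −1.17 to 0.31 for S100a8, −0.53 to 0.44 for S100a9, −0.64 to 0.34 for S100b, −0.72 to 0.035 for Crnn, −0.38 to 0.79 for Flg2 and −0.10 to 0.13 for Anxa2. Without Female2, S100a8 was 0.052, S100b 0.17 and Anxa2 −0.035. Without Male2, S100a8 was 0.31, S100b 0.40, Crnn 0.047 and Anxa2 −0.056. Anxa1 passed in 5 of 17 alternatives and Cacybp in 3. With the longest transcript 6 of 9 places in the order of Low levels were kept. The causes were not tested, apart from the fewer genes named. With 15 to 49 counts of S100a3 and as few as 4 of S100a4, small changes of these genes were not detectable.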
